A study of Mus musculus with 5 samples.

Results

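The 8 genes described here make, pack, take up, break down or receive GABA and glycine, the inhibitory transmitters of the retina. They are *Gad1*, *Gad2*, *Slc32a1*, *Slc6a9*, *Slc6a11*, *Abat*, *Glra1* and *Gabrr2*, chosen by name from the 33696 genes of the deposited lists. The cells were tdTomato+ cells sorted by FACS from mouse retinas 56 days after injection of AAV, and their RNA was counted cell by cell on the 10x Genomics platform as unique molecular identifiers (UMIs). Mice were *Glast-CreERT2*; *Rosa26-Ai65* on C57BL/6J, male and female pooled, 12 to 20 weeks old. Control mice received ShH10-GFAP-*mKate2* AAV, which encodes a red fluorescent protein (16 pooled retinas, 2 libraries), and the others received ShH10-GFAP-*Yap5SA* AAV, which encodes a YAP protein that the Hippo pathway cannot switch off (21 pooled retinas, 3 libraries). In all groups tdTomato required Cre, induced by tamoxifen in *Glast*-expressing cells, together with the FlpO recombinase that the AAV carried under a *Gfap* promoter, so the sort was aimed at infected Müller glia (MG) and cells derived from them. The comparisons asked in which sorted cells these genes were found, how MG differed from neurons, and whether MG differed between the AAVs.

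Amacrine cells of the inner retina are inhibitory neurons, and most of them release either GABA or glycine. GABA is made from glutamate by the GAD enzymes, and the transporter encoded by *Slc32a1* loads either transmitter into synaptic vesicles. MG wrap the synapses, clear GABA through membrane transporters and degrade it in mitochondria, while bipolar cells receive GABA and glycine through chloride channels on their dendrites and axon terminals.

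The genes lie on mouse chromosomes 2 (*Gad1*, *Gad2*, *Slc32a1*), 4 (*Slc6a9*, *Gabrr2*), 6 (*Slc6a11*), 11 (*Glra1*) and 16 (*Abat*). In the GRCm39 build that the labels name, *Gad1* spans chr2:70383416-70432372, *Gad2* chr2:22511862-22583886 and *Slc32a1* chr2:158452605-158464883. *Slc6a9* spans chr4:117691703-117732395, *Slc6a11* spans chr6:114108200-114226913, *Abat* spans chr16:8331233-8439996, *Gabrr2* spans chr4:33062937-33096126 and these 7 genes are on the plus strand. *Glra1* is on the minus strand at chr11:55405064-55499422. No member overlapped another protein-coding gene on its own strand. Promoter sequences from RefSeq, which are on the older GRCm38.p6 build, matched 6 of the 8 symbols, with *Abat* and *Glra1* unmatched. The 250 bases before the start are shown for the 3 genes found together in amacrine-like cells and for 1 gene each of MG and of bipolar-like cells, 5′ to 3′, with each E-box (CANNTG, which reads the same on both strands) in capitals.
Gad1, chr2:70561879-70562128: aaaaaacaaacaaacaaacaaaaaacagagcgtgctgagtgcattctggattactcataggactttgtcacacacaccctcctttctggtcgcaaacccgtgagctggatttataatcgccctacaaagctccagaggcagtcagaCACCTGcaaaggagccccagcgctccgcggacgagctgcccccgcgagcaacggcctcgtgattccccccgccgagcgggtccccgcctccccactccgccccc
Gad2, chr2:22622077-22622326: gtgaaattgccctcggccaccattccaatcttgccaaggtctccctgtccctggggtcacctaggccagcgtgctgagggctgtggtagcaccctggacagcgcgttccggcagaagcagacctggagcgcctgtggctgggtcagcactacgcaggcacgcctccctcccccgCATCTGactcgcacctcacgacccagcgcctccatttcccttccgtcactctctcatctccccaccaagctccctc
Slc32a1, chr2:158610508-158610757: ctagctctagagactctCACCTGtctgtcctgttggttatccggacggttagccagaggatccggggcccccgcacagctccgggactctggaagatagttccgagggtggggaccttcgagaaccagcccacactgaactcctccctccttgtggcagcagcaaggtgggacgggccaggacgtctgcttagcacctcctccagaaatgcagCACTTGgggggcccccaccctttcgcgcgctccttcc
Slc6a11, chr6:114130991-114131240: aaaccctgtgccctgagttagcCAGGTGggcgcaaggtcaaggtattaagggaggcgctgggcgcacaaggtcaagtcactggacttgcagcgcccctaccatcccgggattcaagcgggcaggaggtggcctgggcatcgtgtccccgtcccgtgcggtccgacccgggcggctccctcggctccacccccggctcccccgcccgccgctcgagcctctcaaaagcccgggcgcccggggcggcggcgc
Gabrr2, chr4:33062862-33063111: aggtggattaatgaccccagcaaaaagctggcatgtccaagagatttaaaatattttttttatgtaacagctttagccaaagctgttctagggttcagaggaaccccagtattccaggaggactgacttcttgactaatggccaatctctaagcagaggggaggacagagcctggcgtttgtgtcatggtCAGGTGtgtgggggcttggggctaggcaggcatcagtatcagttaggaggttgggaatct
*Slc32a1* held 2 E-boxes and each of the other 4 held 1, in a genome where 66.2% of 32851 promoters of this length held at least 1. The photoreceptor-type homeobox motif TAATCC, searched on both strands, occurred once before *Gad1* and once before *Gabrr2*, and in 6.25% of all promoters. GC content ran from 47.6% before *Gabrr2*, with 1 CpG, to 71.2% before *Slc6a11*, with 25 CpGs, beside a median of 52.4% over all promoters. These counts describe the letters and were compared with no measurement.

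The 5 libraries held from 1364 to 7729 barcodes and from 12319028 to 50938304 UMIs. *Yap5SA* AAV replicates 1 and 2 shared 1361 barcodes, 99.8% of the smaller library, whereas other pairs shared at most 0.218%, so replicate 2 was left out and 4 libraries were used. Of 10749 cells with at least 1000 UMIs and at most 15% mitochondrial UMIs, 6540 (60.8%) were MG, in which *Glul*, *Rlbp1*, *Slc1a3*, *Clu* and *Aqp4* together took at least 0.5% of UMIs. The other cells were classed by markers that include none of the 8 genes. There were 243 amacrine-like, 417 bipolar-like, 1164 rod-like, 86 cone-like and 1060 microglia-like cells, and 1239 cells fell in no class. Amacrine-like, bipolar-like, rod-like and cone-like cells reached 20 cells only in *mKate2* AAV replicate 2 and *Yap5SA* AAV replicate 3, so in these classes each AAV had 1 library and no test between AAVs was possible. Those 2 libraries carry Cell Ranger 9.0.1 in their file headers and the other 3 carry 8.0.0. No source used here says that libraries of 1 AAV came from separate animals, so p-values hold for these libraries only. Between AAVs they measure the spread between libraries. Between classes, with library as a block, they measure the spread that remains, estimated over all classes together.

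*Gad1* and *Gad2*, the enzymes that make GABA, and *Slc32a1*, the vesicular transporter for GABA and glycine, were found almost only in amacrine-like cells. These cells held 95.9% of the 1823 *Gad1* UMIs of the 4 libraries, 89.0% of 1215 for *Gad2* and 87.1% of 1472 for *Slc32a1*, although they were 2.26% of the cells. *Gad1* stood at 322 counts, scaled to a total of 1e+06 UMIs per sum of cells (CPM), in amacrine-like cells of *mKate2* AAV replicate 2 and 325 in those of *Yap5SA* AAV replicate 3. In MG, with the 2 *mKate2* AAV libraries first and *Yap5SA* AAV replicates 1 and 3 after them, it stood at 0.0842, 1.72, 0 and 1.28. The amacrine-like and MG values did not overlap for this gene. *Gad2* measured 201 and 193 in amacrine-like cells against 0.208 to 1.08 in the 4 MG samples, again with a wide gap. *Slc32a1* measured 242 and 210 against 0 to 0.861, where 0 UMIs were found in MG of both replicate 1 libraries.

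The fit over the 16 sums of a class in a library (edgeR's quasi-likelihood test with library as a block, Benjamini-Hochberg adjustment over 16884 genes) gave MG minus amacrine-like log2 fold changes of -7.48 ± 0.41 (SE) for *Gad1* (adjusted p = 3.14e-08), -7.65 ± 0.53 for *Gad2* (adjusted p = 5.04e-08) and -8.67 ± 0.65 for *Slc32a1* (adjusted p = 8.51e-08). Of the 8 members, 1 was higher and 6 were lower in MG than in amacrine-like cells, beside 22.1% of all genes called higher and 19.7% called lower. The median log2 fold change was -4.02 over the 8 members and 0.08 over all genes tested. Fitted differences between classes depend on the scaling, and with library totals in place of TMM factors the median gene moved by -0.25 in this comparison.

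*Slc6a9*, the transporter that recovers glycine and marks glycinergic amacrine cells, was also highest in amacrine-like cells, with a less sharp division. It stood at 159 and 223 CPM in amacrine-like cells of *mKate2* AAV replicate 2 and *Yap5SA* AAV replicate 3. Rod-like cells of the same libraries had 11.9 and 11.9, cone-like cells 6.43 and 9.14, and bipolar-like cells 6.10 and 3.36. In MG the gene measured 1.18, 4.84, 2.18 and 12.4 in the library order given above, so the highest MG sample lay above the rod-like cells and the lowest lay below the bipolar-like cells. MG were lower than amacrine-like cells by edgeR (log2 fold change -4.36 ± 0.41, adjusted p = 4.77e-07). Against rod-like and bipolar-like cells the differences of -0.47 ± 0.40 (adjusted p = 0.355) and 0.60 ± 0.44 (adjusted p = 0.282) did not pass the threshold of 0.05, although the latter passed in 2 of 13 alternative settings (adjusted p from 0.0244 to 1.0).

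**Figure D1:**
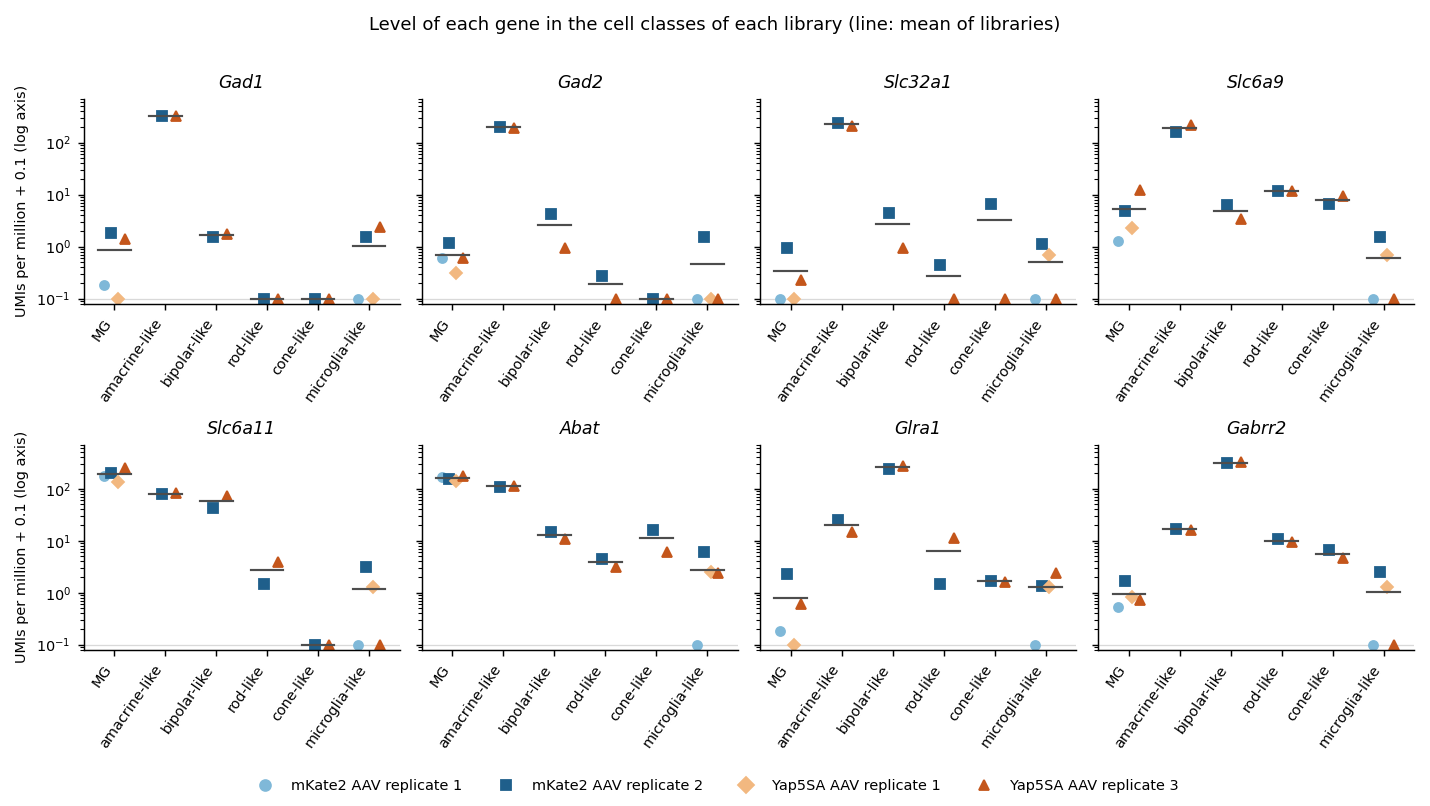
Each panel shows 1 gene, with the cell class on the x axis and CPM + 0.1 on a log y axis, 1 point per library and a line at the mean. *Gad1*, *Gad2*, *Slc32a1* and *Slc6a9* peak in amacrine-like cells, *Slc6a11* and *Abat* in MG, and *Glra1* and *Gabrr2* in bipolar-like cells, in both libraries that hold these neurons.

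Among amacrine-like cells thinned to 5000 UMIs, those with only *Gad* UMIs and those with only *Slc6a9* UMIs each outnumbered those with both. In cells thinned to 5000 UMIs, 69 of 171 in *mKate2* AAV replicate 2 (40.4%, exact 95% interval 32.9 to 48.1) had a UMI of *Gad1* or *Gad2* but none of *Slc6a9*, and 39 (22.8%, 16.7 to 29.8) had *Slc6a9* but neither *Gad* gene. A further 22 cells (12.9%) had both kinds and 41 (24.0%) had none of the 3 genes. In *Yap5SA* AAV replicate 3, 14 of 39 cells (35.9%, 21.2 to 52.8) had only *Gad* UMIs, 15 (38.5%, 23.4 to 55.4) only *Slc6a9*, 3 (7.69%) both and 7 (17.9%) neither. Thinning left out 22 and 11 cells of lower depth, and intervals cover counting error only. A gene with few UMIs can be missed at this depth. Without thinning, *Gad2* was seen in 58.0% and *Slc6a9* in 53.9% of the 193 cells of *mKate2* AAV replicate 2, so the kinds overlapped in part. The shares overlapped between these 2 libraries.

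*Slc32a1*, which serves either transmitter, did not follow that division. A UMI of it was present in 68.1% of *Gad*-only and 66.7% of *Slc6a9*-only cells of *mKate2* AAV replicate 2, and in 64.3% and 66.7% of those of *Yap5SA* AAV replicate 3. *Slc6a11*, a GABA transporter, was found with the *Gad* genes. It stood at 148 and 123 CPM in the *Gad*-only cells of the 2 libraries and at 4.19 and 16.3 in the *Slc6a9*-only cells. *Abat* was present in both kinds, at 101 and 85.4 in *Gad*-only and 131 and 160 in *Slc6a9*-only cells. *Slc6a5*, the other glycine transporter, measured 39.6 and 24.0 against 56.6 and 101. These levels come from cells chosen by their *Gad* and *Slc6a9* UMIs, in 1 library per AAV, and carry no test. Doublets were not called.

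**Figure D2:**
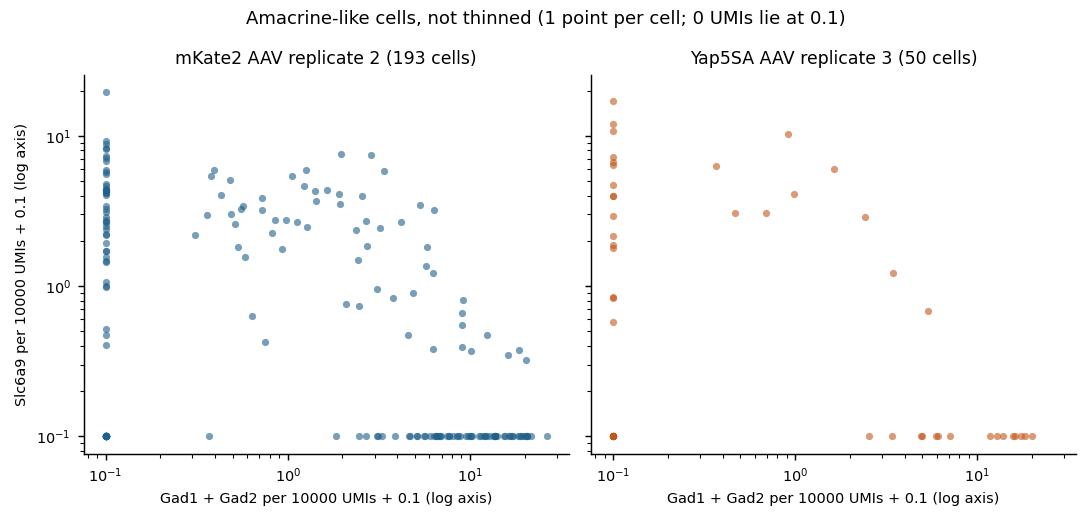
Each point is 1 amacrine-like cell, with *Gad1* + *Gad2* on the x axis and *Slc6a9* on the y axis, as UMIs per 10000 UMIs of the cell + 0.1 on log axes. In both libraries the points lie along the axes and along a band that falls from cells high in *Slc6a9* to cells high in the *Gad* genes.

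*Slc6a11*, which encodes the GABA transporter GAT3 of glia, and *Abat*, the mitochondrial transaminase that starts the breakdown of GABA, were highest in MG. MG held 88.4% of the 10207 *Slc6a11* UMIs and 86.1% of the 8875 *Abat* UMIs. *Slc6a11* measured 178, 197, 133 and 250 CPM in MG, in the same library order. Amacrine-like cells had 77.6 and 81.8 and bipolar-like cells 43.0 and 71.4, so no neuron class reached the lowest MG sample. Rod-like cells had 1.40 and 3.85, cone-like cells had 0 UMIs in both libraries, and microglia-like cells had 0 to 3.06. *Abat* was the steadier of the pair across MG samples, at 169, 156, 143 and 173, with 108 and 115 in amacrine-like cells, 14.5 and 10.9 in bipolar-like, 16.1 and 6.09 in cone-like and 4.37 and 3.08 in rod-like cells.

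The 2 genes separated the classes differently. *Slc6a11* was higher in MG than in amacrine-like cells (log2 fold change 1.73 ± 0.38, edgeR adjusted p = 0.00176) and bipolar-like cells (2.19 ± 0.39, adjusted p = 0.000276). The difference of *Abat* from amacrine-like cells, 0.90 ± 0.36, missed the threshold (adjusted p = 0.0532) and passed it in 5 of 13 alternative settings (adjusted p from 0.0302 to 0.43), while that from bipolar-like cells was 3.95 ± 0.42 (adjusted p = 1.08e-06). Against rod-like cells the values were 6.76 ± 0.52 for *Slc6a11* and 5.73 ± 0.46 for *Abat* (adjusted p = 8.01e-08 for either gene). Microglia-like cells, taken here as a class that should lack both genes, lay 5.88 ± 0.42 and 4.85 ± 0.36 below MG (adjusted p = 1.03e-08 and 1.05e-08).

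By count, MG were higher than bipolar-like cells for 2 members and lower for 4, beside 23.7% and 20.2% of all genes. Against rod-like cells 4 were higher and 1 was lower, beside 29.0% and 17.7% of all genes. Against microglia-like cells 3 were higher and 1 was lower, beside 30.4% and 21.8%, although library totals in place of TMM moved the median gene by 0.47 in that comparison and 72.9% of its calls, not 58.2%, were then higher. The median of the 8 members was -0.68 against bipolar-like, 2.12 against rod-like and -0.68 against microglia-like cells, with medians over all genes of 0.06, 0.29 and 0.31.

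**Figure D3:**
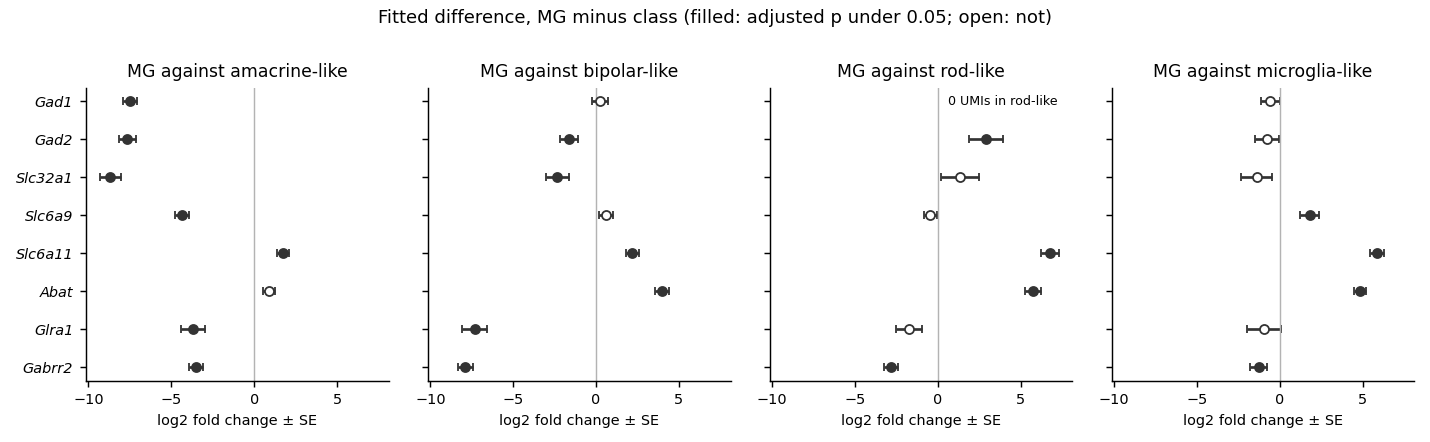
Each panel plots, for 1 cell class, the fitted log2 fold change of MG minus that class (x axis, ± SE) for the 8 genes (y axis), with filled points where the adjusted p is under 0.05. *Slc6a11* lies to the right of 0 in all 4 panels with filled points, and no value is drawn for *Gad1* against rod-like cells, which held 0 UMIs of it.

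*Slc6a11* varied among MG with depth and with the share of ribosomal protein mRNA, while *Abat* was nearly level. In MG with 1000 to 2000 UMIs *Slc6a11* measured 96.2, 96.2, 61.0 and 123 CPM in the 4 libraries, and in MG with 10000 or more it measured 194, 272, 138 and 341. All 4 libraries were higher in the deeper cells. *Abat* in the same bins measured 199, 166, 152 and 167 and then 170, 138, 140 and 153, lower in the deeper cells of every library by a small step. By ribosomal share, *Slc6a11* fell from 268, 294, 193 and 375 in MG under 2% to 25.3, 65.8, 17.4 and 113 in MG at 10% or over. *Abat* measured 166, 141, 161 and 153 in the former and 174, 159, 129 and 157 in the latter, with both directions among the 4 libraries. Median depth moved with ribosomal share, from 4697 to 1910 UMIs between these bins in *mKate2* AAV replicate 1 and from 21090 to 2491 in *mKate2* AAV replicate 2. Mitochondrial share rose from 0.899% to 9.62% in the latter and from 0.563% to 7.75% in *Yap5SA* AAV replicate 3. It rose less in *mKate2* AAV replicate 1, from 2.81% to 3.7%, and fell from 2.94% to 0.953% in *Yap5SA* AAV replicate 1. By depth, mitochondrial share was 8.46% in the shallowest and 1.54% in the deepest MG of *mKate2* AAV replicate 2. The part of depth and of mitochondrial share in the result was not tested.

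**Figure D4:**
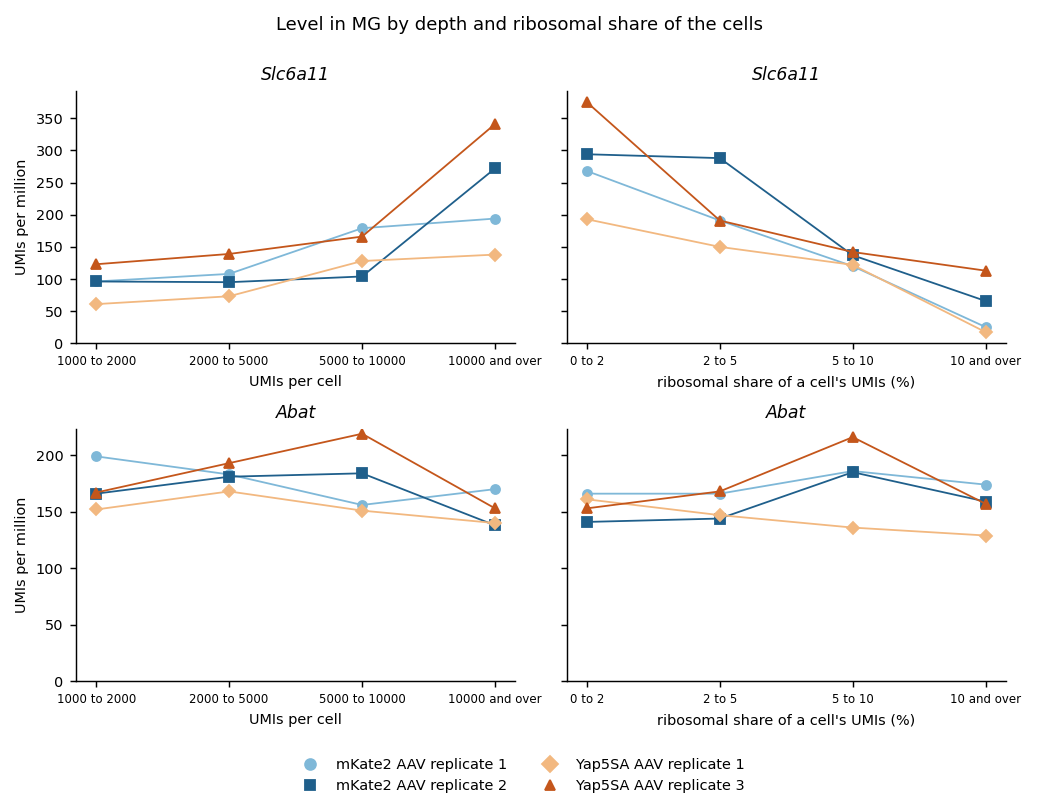
The x axes give bins of UMIs per cell (left) or of the ribosomal share of a cell's UMIs (right), the y axis the level in CPM of *Slc6a11* (top) and *Abat* (bottom), with 1 line per library. All 4 *Slc6a11* lines climb with depth overall and fall with ribosomal share, and the *Abat* lines stay between 129 and 219.

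Per cell, a UMI of *Slc6a11* was seen in 26.1%, 18.6%, 21.1% and 26.1% of MG thinned to 2000 UMIs, a mean of 23.0% ± 3.75 (SD, n = 4). *Abat* was seen in 28.2%, 26.6%, 23.8% and 29.7%, a mean of 27.1% ± 2.52 (SD, n = 4). In microglia-like cells of *mKate2* AAV replicate 2, the best covered class that should lack them, the shares were 0.567% and 1.13% of 705 cells. The median depth before thinning was 4732 UMIs in these cells and 4027 in MG of the same library. Without thinning the MG shares were 43.4% ± 12.1 for *Slc6a11* and 51.8% ± 11.7 for *Abat* (SD, n = 4).

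The receptor genes were those of bipolar-like cells. *Glra1* encodes a ligand-binding subunit of the glycine receptor, and *Gabrr2* a rho subunit of the GABA-gated chloride channel that is known from bipolar axon terminals. Bipolar-like cells held 82.0% of the 2729 *Glra1* UMIs and 88.8% of the 3210 *Gabrr2* UMIs. *Glra1* measured 244 and 268 CPM in bipolar-like cells of *mKate2* AAV replicate 2 and *Yap5SA* AAV replicate 3, and *Gabrr2* 314 and 321. Amacrine-like cells followed at 25.1 and 14.8 for *Glra1* and 16.8 and 15.9 for *Gabrr2*. In rod-like cells *Gabrr2* was at 10.7 and 9.23, whereas *Glra1* was at 1.40 and 11.2, the latter from 29 UMIs in 2 of 569 cells. MG had 0.0842, 2.15, 0 and 0.511 for *Glra1* and 0.421, 1.56, 0.727 and 0.638 for *Gabrr2*, below every amacrine-like and bipolar-like value. In *mKate2* AAV replicate 2, 1 MG held 17 of the 40 *Glra1* UMIs, and 13 of the 29 *Gabrr2* UMIs lay in 1 MG. MG minus bipolar-like log2 fold changes were -7.32 ± 0.76 (edgeR adjusted p = 9.29e-07) and -7.89 ± 0.45 (adjusted p = 1.16e-08), and MG minus amacrine-like ones -3.68 ± 0.71 (adjusted p = 0.000496) and -3.49 ± 0.43 (adjusted p = 5.78e-06). The last value was -1.13 (adjusted p = 0.0963) without cells past the limits of 2 classes, and past the threshold in the other 12 settings. *Gabrr2* was also lower in MG than in rod-like cells (-2.86 ± 0.42, adjusted p = 2.63e-05). *Glra1* in that comparison (-1.77 ± 0.78, adjusted p = 0.0728) rested on the library, with 0.51 without *Yap5SA* AAV replicate 3 and -4.56 without *mKate2* AAV replicate 2 (adjusted p from 0.000175 to 0.74 over 13 settings).

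The bipolar-like cells were not alike in these genes. They were divided by markers of the class, with *Trpm1*, *Grm6* and *Isl1* for ON cells, which depolarise to light, and *Grik1* and *Tacr3* for OFF cells. Summed UMIs were compared, so *Grik1* weighed most. OFF cells of *mKate2* AAV replicate 2 held 39751 UMIs of it and 237 of *Tacr3*, and those of *Yap5SA* AAV replicate 3 held 3624 and 150. *Trpm1* was also seen in 83.6% and 85.7% of these OFF cells. *Glra1* stood at 139 and 134 CPM in the 201 and 40 cells with more ON marker UMIs and at 388 and 517 in the 152 and 21 cells with more OFF marker UMIs. It was seen in 55.7% and 47.5% of the former and 92.1% and 85.7% of the latter. *Gabrr2* stood at 331 and 352 in ON and 290 and 262 in OFF cells, with the opposite order in both libraries and a smaller gap. Its partner rho subunits *Gabrr1* and *Gabrr3* measured 143 and 187 in the ON and 180 and 203 in the OFF cells of *mKate2* AAV replicate 2. In *Yap5SA* AAV replicate 3 they measured 141 and 258 in ON and 176 and 140 in OFF cells, so the order of *Gabrr3* differed between the libraries. The median depth of ON and OFF cells was 23568 and 20517 UMIs in *mKate2* AAV replicate 2 and 19490 and 19397 in *Yap5SA* AAV replicate 3. *Slc6a11* was 32.3 and 51.6 in ON and 57.7 and 108 in OFF cells, so this gene, like *Glra1*, was higher in OFF cells of both libraries. *Abat* was 6.59 and 9.03 in ON and 25.4 and 14.4 in OFF cells. In *Yap5SA* AAV replicate 3 its values rested on 7 UMIs in 5 ON cells and 6 UMIs in 3 OFF cells, too few to order them. With 1 library per AAV these values carry no test.

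The few *Gad2* and *Slc32a1* UMIs of bipolar-like cells lay in a handful of cells. In *mKate2* AAV replicate 2, 33 *Gad2* UMIs came from 5 and 32 *Slc32a1* UMIs from 6 of the 152 OFF cells, and the ON cells held 0 and 2. MG were lower than bipolar-like cells for *Gad2* (-1.62 ± 0.55, edgeR adjusted p = 0.0256) and *Slc32a1* (-2.34 ± 0.68, adjusted p = 0.011). Without cells past the limits of 2 classes the *Gad2* value was 0.43 (adjusted p = 0.669), and the gene ran from 0.0126 to 0.851 in adjusted p over 13 settings. The adjusted p of *Slc32a1* was 0.0694 by DESeq2 and 0.386 without *mKate2* AAV replicate 2, in a range that began at 0.000481. *Gad1* differed by 0.25 ± 0.49 in that comparison (adjusted p = 0.72), with a range of -0.35 to 2.33 over 13 settings, 2 of which passed the threshold.

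The genes of amacrine-like and bipolar-like cells, *Slc6a9* aside, were rare in MG. In *mKate2* AAV replicate 2 they were no more frequent there than in microglia-like cells within counting error. The other libraries held 19, 103 and 47 microglia-like cells of at least 2000 UMIs, too few to compare such shares. After thinning to 2000 UMIs, *Gad1* was seen in 0 of 1190, 6 of 2028, 0 of 710 and 1 of 930 MG in the library order above, and 0 of 1190 cells allows a share of cells with a UMI of up to 0.252% by the floor of 3 counts, or 0.310% by the exact interval. In *mKate2* AAV replicate 2 the *Gad1* share was 0.296% in MG and 0.284% in microglia-like cells. It was 0.197% and 0.426% for *Gad2* and 0.197% and 0.142% for *Slc32a1*. For *Glra1* it was 0.0986% and 0.142%, and for *Gabrr2* 0.0986% and 0.709%. Over the 4 libraries the mean MG shares were 0.101% ± 0.14 for *Gad1*, 0.124% ± 0.101 for *Gad2*, 0.0493% ± 0.0985 for *Slc32a1*, 0.0246% ± 0.0493 for *Glra1* and 0.157% ± 0.184 for *Gabrr2* (SD, n = 4). Levels in MG did not differ past the threshold from microglia-like cells for *Gad1* (-0.58 ± 0.57, edgeR adjusted p = 0.424), *Gad2* (-0.79 ± 0.71, adjusted p = 0.374), *Slc32a1* (-1.39 ± 0.94, adjusted p = 0.235) and *Glra1* (-0.97 ± 1.03, adjusted p = 0.455). *Gabrr2* was lower in MG (-1.27 ± 0.51, adjusted p = 0.0469) and lost the call in 9 of 13 alternative settings (adjusted p from 0.00909 to 0.733).

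Against rod-like cells, MG were called higher for *Gad1* and *Gad2* at counts that are close to none. *Gad1* had 0 UMIs in rod-like cells of both libraries. Against a floor of 3 counts there, the MG level was 3.28-fold in *mKate2* AAV replicate 2 and 1.11-fold in *Yap5SA* AAV replicate 3. These ratios leave out the counting error of MG, which held 32 and 10 UMIs, so they are not lower bounds. For *Gad2*, 1 UMI in rod-like cells and 20 in MG of *mKate2* AAV replicate 2 gave a ratio of 6.17 with a counting interval of 0.984 to 255. The *Gad2* call was lost in 5 of 13 alternative settings, among them without *mKate2* AAV replicate 2 (adjusted p = 0.35) and without *Yap5SA* AAV replicate 3 (adjusted p = 0.134), in a range from 0.0248. That of *Gad1* was lost without *mKate2* AAV replicate 2 alone (adjusted p = 0.097).

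In MG *Slc6a9* exceeded its level in microglia-like cells (1.79 ± 0.56, edgeR adjusted p = 0.0129), a call lost without *Yap5SA* AAV replicate 3 (1.31, adjusted p = 0.193) and with class limits doubled (1.55, adjusted p = 0.138), in a range from 0.00162. MG held 2.81 *Slc6a9* UMIs per *Gad1* UMI in *mKate2* AAV replicate 2 and 9.70 in *Yap5SA* AAV replicate 3, where amacrine-like cells held 0.493 and 0.685. Bipolar-like cells held 4.36 and 2.00, cells of no class had 120 and 38 *Slc6a9* UMIs with 8 and 3 of *Gad1*, and rod-like cells had 68 and 31 *Slc6a9* UMIs with 0 of *Gad1*, so the ratio was not particular to MG. In *Yap5SA* AAV replicate 3, 70 of the 97 MG UMIs of the gene lay in 95 of 1341 cells, those with a ribosomal share of 2 to 5%, at a level of 66.6 CPM. In the same bin *mKate2* AAV replicate 2 had 8.14, *mKate2* AAV replicate 1 had 1.30 and *Yap5SA* AAV replicate 1 had 0.934. Of the 97 UMIs, 2 were in cells that also passed the limits of another class, and no MG of that library held more than 5. In *mKate2* AAV replicate 2 such cells held 16 of 90 UMIs, 14 of them in 3 cells past the amacrine limit, and 1 MG held 13. For *mKate2* AAV replicate 1 it was 6 of 14, 5 of them in 2 cells past the amacrine limit.

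Between the AAVs no member of the set passed the test in MG. Of 15285 genes tested by edgeR, 0 were called (0.0%) and 30 fell under 0.05 without adjustment. The counterparts by DESeq2 were 0 and 52 genes. *Gad1*, *Slc6a9*, *Slc6a11* and *Abat* had enough counts to be tested, and *Gad2*, *Slc32a1*, *Glra1* and *Gabrr2* did not. *Slc6a11* averaged 188 ± 13.4 CPM with *mKate2* AAV and 191 ± 82.7 with *Yap5SA* AAV (SD, n = 2 each), and the *mKate2* AAV values lay between the 2 *Yap5SA* AAV values. *Abat* averaged 163 ± 9.27 and 158 ± 21.7, with the same arrangement. Log2 fold changes of *Yap5SA* over *mKate2* AAV were -0.07 ± 0.40 for *Slc6a11* and -0.13 ± 0.25 for *Abat* (adjusted p = 1.0 for either gene).

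*Slc6a9* averaged 3.01 ± 2.59 with *mKate2* AAV and 7.28 ± 7.21 with *Yap5SA* AAV (SD, n = 2), a log2 fold change of 1.11 ± 1.12 (edgeR adjusted p = 1.0). The value was -0.65 without *Yap5SA* AAV replicate 3. *Gad1* averaged 0.903 ± 1.16 and 0.638 ± 0.903 (-0.74 ± 1.90, adjusted p = 1.0). For 6 of the 8 genes, all but *Abat* and *Gabrr2*, the lower MG value of either AAV was in the library whose file header carries Cell Ranger 8.0.0. Within the pair of 8.0.0 libraries and the pair of 9.0.1 libraries the log2 ratio of *Yap5SA* to *mKate2* AAV was -0.42 and 0.34 for *Slc6a11*, -0.24 and 0.15 for *Abat*, and 0.89 and 1.35 for *Slc6a9*. These ratios set 1 library against 1 and have no replicate check. An edgeR fit between AAVs with the Cell Ranger version as a term called 0 of 15285 genes. In that fit 151 genes fell under 0.05 without adjustment. The difference between the versions themselves was not tested.

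**Figure D5:**
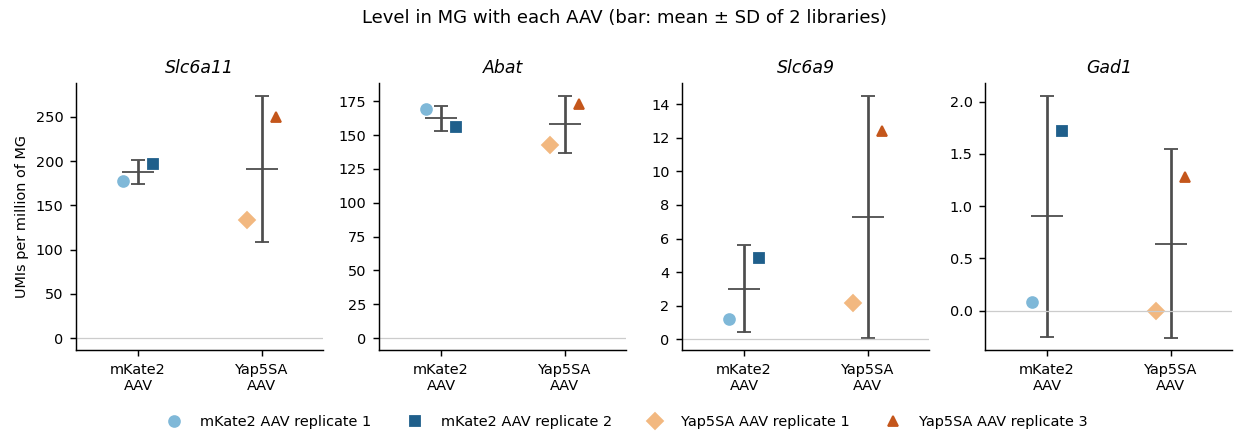
The level in MG (y axis, CPM) is plotted for the 4 testable genes with each AAV (x axis), as 1 point per library and the mean ± SD of 2 libraries. The *mKate2* AAV points of *Slc6a11* and *Abat* lie between the *Yap5SA* AAV points, and the intervals of *Slc6a9* and *Gad1* overlap.

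Neuron classes could only be set side by side. In amacrine-like cells *Gad1* was 322 in the *mKate2* AAV library and 325 in the *Yap5SA* AAV library, from 1462 and 286 UMIs, and *Slc6a9* was 159 and 223, from 721 and 196 UMIs. In bipolar-like cells *Gabrr2* was 314 and 321, from 2467 and 382 UMIs. *Slc6a11* in bipolar-like cells was 43.0 and 71.4, from 338 and 85 UMIs. The AAV and the library cannot be told apart here.

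The rest of the transmission pathway was described through 49 further genes, of which 45 were tested between MG and amacrine-like cells. In MG 6 were higher and 28 were lower, beside 22.1% and 19.7% of all genes, with a median log2 fold change of -2.34 beside 0.08 over all genes. All 12 tested GABA-A subunit genes were lower (median -5.64), as were both other rho genes and all 5 GABA-B genes. Of 4 other glycine receptor genes 3 were lower, led by *Glra3* (-8.25 ± 0.71) and *Glra2* (-7.80 ± 0.70), which stood at 0.315 and 0.267 CPM in MG and 178 and 130 in amacrine-like cells (means of 4 and 2 libraries). *Slc6a5*, the neuronal glycine transporter, was the other of the 3 largest falls (-7.11 ± 0.68, 0.293 in MG and 50.4 in amacrine-like cells). The 3 largest rises were *Glul*, which the MG rule itself uses, *Gldc* and *Slc38a3*. *Gldc*, the decarboxylase of the glycine cleavage system, was at 184 ± 49.9 (SD, n = 4) in MG and 2.12 ± 0.205 (SD, n = 2) in amacrine-like cells (6.57 ± 0.55, edgeR adjusted p = 2.18e-07). *Slc38a3*, which exports glutamine, was at 188 ± 24.3 and 10.1 ± 0.198 (4.35 ± 0.39, adjusted p = 2.58e-07).

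Against bipolar-like cells 5 pathway genes were higher and 21 lower in MG, beside 23.7% and 20.2% of all genes, with *Gabrr3* (-8.65 ± 0.51) and *Gabrr1* (-8.30 ± 0.55) the largest falls. Against rod-like cells 18 of 45 were higher and 6 lower, where 29.0% of all genes were higher and 17.7% lower. Against microglia-like cells 14 were higher and 8 lower, shares near the 30.4% and 21.8% of all genes. Between the AAVs 32 of the 49 were tested in MG and 0 were called by edgeR.

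Across the 16 sums of a class in a library the members fell into groups by the class in which they were highest. Pearson's r of log2(CPM + 1) was 0.97 between *Gad1* and *Gad2*, 0.93 between *Gad1* and *Slc32a1*, 0.88 between *Slc6a11* and *Abat* and 0.94 between *Glra1* and *Gabrr2*. It was 0.38 between *Gad1* and *Slc6a11* and 0.26 between *Slc6a11* and *Glra1*. *Slc6a9*, which like *Slc6a11* encodes an uptake transporter, had 0.79 with *Gad1* and 0.36 with *Slc6a11*. Among 15614 genes with at least 100 UMIs, class markers left out, the 3 most like *Gad1* were *Gad2*, *Gabra4* and *AI593442* (r from 0.974 to 0.975). Among those most like *Gad2* were *Spink13* and *Pakap*, and those most like *Slc32a1* were *Pou3f3*, *Kcna1* and *Gm56822* (r from 0.987 to 0.991 for these 5). *Stk32c* and *Pou3f1* were among the nearest to *Slc6a9*, with r of 0.911 and 0.909. *Slc6a11* was most like *Fhl1*, *Adam23* and *Dgkb* (0.980 to 0.983), and *Abat* most like *Stac2*, *Sema5a* and *Synpr* (0.968 to 0.971). *Glra1* and *Gabrr2* shared *Gm20754* and *Rskr*, and the remaining gene was *Gm53533* for *Glra1* and *Glra1* itself for *Gabrr2* (0.939 to 0.962). The sums share libraries and differ in depth, so these values describe the pattern only.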

How the data were processed

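Single-cell RNA-seq of tdTomato+ cells sorted from mouse retina was used, as the filtered matrices of UMI counts per gene and barcode that the authors deposited. Per the labels the counts were made with Cell Ranger 8.0.0 on GRCm39, and per the file headers version 9.0.1 made those of *mKate2* AAV replicate 2 and *Yap5SA* AAV replicate 3. Genes and lists were chosen with earlier results of these data known. Cells with at least 1000 UMIs and at most 15% mitochondrial UMIs were kept. MG had 5 marker genes at 0.5% of UMIs or more together. Other cells went to the marker list whose share of UMIs stood highest relative to its limit, if the limit was reached (microglia 1%, rod 1%, cone 0.5%, bipolar 0.25%, amacrine 0.2%) with 3 or more markers present, and were called by that name with "-like". These limits were set after the spread of marker shares was seen. Doublets were not called. Clusters were not made.

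Counts were summed per class and library, and sums of at least 20 cells were fitted with edgeR 4.0.16 (TMM, filterByExpr, quasi-likelihood test, two-sided, limma 3.58.1, R 4.3.3) across all genes, with a Benjamini-Hochberg adjusted p of 0.05 as the threshold. Classes were compared in 1 fit of 16 sums with library as a block, and AAVs in the 4 MG sums. The scripts were checked on simulated counts with 200 changed genes. Of 2-fold changes, 0.5% were recovered between AAVs and 7.5% between MG and amacrine-like cells. Of 8-fold changes, 70.5% and 86.5% were recovered, so small differences between AAVs would mostly be missed. DESeq2 1.42.0, other cell limits, other filters, leaving out each library and, between AAVs, the Cell Ranger version as a term were alternatives. Class limits doubled, cells past the limits of 2 classes left out, and library totals in place of TMM were chosen after seeing the data. Standard errors of log2 fold changes were derived from the edgeR test, as the absolute log2 fold change over the square root of its F statistic. Shares of cells were compared after thinning each cell to 2000 UMIs (5000 in amacrine-like cells). Intervals are exact Clopper-Pearson 95% limits and, like the floor of 3 counts, cover counting error only. All 8 genes are named in each comparison, with the 3 most alike genes of each and the 3 largest rises and falls among 49 further pathway genes; other genes were named after their values were seen. A few items that this rule names are not reported here. Python 3.11.15, numpy 2.4.6, pandas 2.3.3, scipy 1.17.1 and matplotlib 3.10.9 were used.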

Additional observations from a re-analysis of the deposited data

Results flagged for a closer look

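The 1239 cells that fell in no class were left out of the comparisons, and summed over the libraries each of the 8 genes stood above its level in microglia-like cells there. This did not hold in every library, since *Glra1* and *Gabrr2* were at 0.637 CPM in these cells of *Yap5SA* AAV replicate 1 and at 1.2 in its microglia-like cells. Over 4 libraries these cells held 11 *Gad1* UMIs (1.35 CPM against 1.09 in microglia-like cells, which held 8 UMIs), 60 of *Gad2* (7.38 against 0.951), 126 of *Slc32a1* (15.5 against 0.815) and 166 of *Slc6a9* (20.4 against 1.09). They held 301 UMIs of *Slc6a11* (37.0 against 2.31), 434 of *Abat* (53.4 against 4.62), 272 of *Glra1* (33.5 against 1.22) and 119 of *Gabrr2* (14.6 against 1.90). These differences were not tested.

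Few cells carried the receptor and vesicle genes. In *mKate2* AAV replicate 2, 14 of the cells of no class had 2 or more *Slc32a1* UMIs and held 94 of them. Amacrine markers stood at 1430 CPM in these cells and at 377 in the 679 cells with 0 UMIs. Such cells were deeper, with a median of 20596.5 UMIs against 3779. In the same library 22 cells with 2 or more *Glra1* UMIs held 223, with bipolar markers at 4950 CPM, against 115 in the 663 cells with 0 UMIs. *Yap5SA* AAV replicate 3 had 7 such cells for *Slc32a1* (amacrine markers at 1540 against 590) and 6 for *Glra1* (bipolar markers at 1360 against 150). Amacrine markers were also higher in those 6 cells, at 1010 against 690. The marker *Grik1* alone stood at 3830 of the 4950 CPM in the 22 cells, and at 116 of the 1360 in the 6 cells.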

How the results depend on the processing

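Across the alternatives, 22 gene and comparison pairs past the threshold gave 286 values, of which 260 stayed past it in the same direction, 25 lost the call and 1 turned. The turn was *Gad2* against bipolar-like cells, at 0.43 without cells past the limits of 2 classes. The number of members called between MG and a class was 7 against amacrine-like cells (6 to 8 over the alternatives), 6 against bipolar-like (4 to 7), 5 against rod-like (4 to 6) and 4 against microglia-like cells. Leaving out 1 library gave 2 to 4 for the last, with 2 without *Yap5SA* AAV replicate 3. Differences between AAVs that missed the threshold changed sign in 8 of 62 values over the alternatives. With 1 library left out, the log2 fold change ran from -6.73 to 0.31 for *Gad1*, from -0.65 to 2.65 for *Slc6a9*, from -0.62 to 0.33 for *Slc6a11* and from -0.30 to 0.02 for *Abat*, and *Slc6a11* was 0.03 with library totals and 0.01 with the quality limits of the study. Among class differences that missed it, *Gad1* against bipolar-like cells was -0.25 with an MG limit of 1% and -0.02 with class limits doubled, and ran from -0.35 to 0.58 with 1 library left out. Leaving out a library took *Glra1* against rod-like cells from -4.56 to 0.51 and *Gad2* against microglia-like cells from -0.96 to 3.31, and *Gad1* there was 0.04 with library totals. The cause of these changes was not tested.

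The replicate block needed all 5 libraries, since only *Yap5SA* AAV replicate 2 shares its number with *mKate2* AAV replicate 2, and it holds the cells of replicate 1. The labels do not say that a number marks a shared day or litter, and the block had *Slc6a9* at -0.34 and called 0 members and 0 genes (855 genes under 0.05 without adjustment). Genes called in all fell from 7049 to 3852 against amacrine-like, from 7410 to 4187 against bipolar-like and from 7882 to 4568 against rod-like cells without *Yap5SA* AAV replicate 3, and to 3306, 3257 and 4169 without *mKate2* AAV replicate 2. These fits leave 1 library for each neuron class, whose spread is then taken from the other sums. Depth limits the shares, as *Slc6a11* was seen in 11.9% of MG thinned to 1000 UMIs and *Abat* in 15.1%.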

Other observations

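The cells of no class differed between libraries in *Slc6a11*. In *mKate2* AAV replicate 1 and *Yap5SA* AAV replicate 1 these cells had *Abat* at 73.1 and 59.9 CPM and *Slc6a11* at 10.8 and 8.92, where MG of the same libraries had *Slc6a11* at 178 and 133. The values were 48.2 and 35.0 in *mKate2* AAV replicate 2 and 60.1 and 102 in *Yap5SA* AAV replicate 3. The difference between libraries was not tested.

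A single MG of *mKate2* AAV replicate 2 held 183 *Slc6a11* UMIs of the 3667 in that sample, and the highest count of *Abat* in 1 MG of that library was 41.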
